A study of Mus musculus with 6 samples.

Results

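The genes examined are 10 regulators and markers of spermatogonia on their way from the stem cell to the differentiating cell: Sohlh1, Sohlh2, Neurog3, Kit, Dmrt1, Dmrtb1, Uchl1, Sox3, Upp1 and Taf4b. They were taken by symbol from a table of 55401 mouse genes, and each symbol had 1 row. The mRNA of 6 libraries was sequenced, 3 labelled SSCs and 3 labelled iNSCs. The SSCs are spermatogonial stem cells from the testes of 6-day-old males, grown on inactivated STO fibroblast feeders in 10% serum with LIF at 10 ng/mL, EGF at 20 ng/mL, bFGF at 10 ng/mL and the niche factor GDNF at 20 ng/mL. The iNSCs are neural stem cell-like cells after 6 days of transdifferentiation of such cells, first plated on laminin, then given retinoic acid at 1 µM for 24 h, then kept in 1% serum with N2, B27, bFGF at 20 ng/mL and SB431542 at 10 µM, an inhibitor of TGF-beta type I receptors. The cell type label names the opposite group in all 6 samples, so groups were taken from the titles. Medium, substrate and cell state change together between the groups and cannot be told apart.

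Spermatogonial stem cells first become progenitors, which carry NEUROG3 and SOX3 and can still return to the stem cell state. Retinoic acid then moves progenitors into differentiation, a step marked by the receptor KIT and by the transcription factors SOHLH1 and SOHLH2, which lead on to meiosis. DMRT1 acts along this whole path and holds back the entry into meiosis, and DMRTB1, also called DMRT6, acts in the differentiating cells.

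Library totals were 18058551 to 20156067 counts, so that 3 counts correspond to 0.149 to 0.166 CPM, counts scaled to a common total. The summed level of 8 germ cell markers was 933 to 963 FPKM in SSCs and 15.4 to 19.9 FPKM in iNSCs. FPKM is the count scaled by exonic length and by the library's total. Rises and falls of markers are calls as defined below, and of all genes tested 25.7% rose and 27.6% fell. Of 11 neuronal markers, 3 rose in iNSCs (Tubb3, Stmn2 and Gap43) and 6 fell, with summed levels of 10.0 to 22.1 FPKM in SSCs and 65.4 to 78.0 FPKM in iNSCs. The higher sum was that of Tubb3, since the other 10 neuronal markers summed to 4.34 to 4.76 FPKM in SSCs and 2.61 to 3.55 FPKM in iNSCs. Of 8 epithelial markers, 7 rose and 0 fell, with sums of 153 to 251 FPKM and 2927 to 3483 FPKM. In fibroblast and feeder markers SSCs replicate 3 stood apart from SSCs replicates 1 and 2. The 12 of them summed to 165 FPKM there, against 1113 and 966 FPKM in SSCs replicates 1 and 2 and 904 to 990 FPKM in iNSCs. Among SSC libraries 10 of the 12 were lowest in SSCs replicate 3 and 2, Dcn and Lum, were highest there. The iNSC sum was made up differently: 5 of the 12 rose and 2, Lox and Postn, fell. Vim, Fn1 and Acta2 averaged 397, 212 and 201 FPKM in iNSCs. Lox was at 120, 97.2 and 17.2 FPKM in SSCs replicates 1 to 3 and at 13.9 to 17.1 FPKM in iNSCs. SSCs replicate 1 stood apart in another list: 10 Sertoli markers summed to 350 FPKM there, against 62.5 and 118 FPKM in SSCs replicates 2 and 3. For the members, calls that differ without SSCs replicate 3 are given both ways. For other genes this was not done throughout. In such bulk libraries fewer cells of a type and less RNA per cell cannot be told apart.

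SOHLH1, SOHLH2 and NEUROG3 are basic helix-loop-helix proteins, a class that binds the E-box, CANNTG. The start regions of these 3 genes, of Kit and of Dmrtb1 are shown because SOHLH proteins are known regulators of Kit in the mouse and the genes lie on the same path. Each line runs from 250 bases before to 50 bases after the RefSeq start, 5′ to 3′ on the strand of the gene, from RefSeq on GRCm38.p6. Capitals mark every CANNTG, a motif that reads the same on both strands.
Sohlh1, chr2:25847199-25847498, minus strand: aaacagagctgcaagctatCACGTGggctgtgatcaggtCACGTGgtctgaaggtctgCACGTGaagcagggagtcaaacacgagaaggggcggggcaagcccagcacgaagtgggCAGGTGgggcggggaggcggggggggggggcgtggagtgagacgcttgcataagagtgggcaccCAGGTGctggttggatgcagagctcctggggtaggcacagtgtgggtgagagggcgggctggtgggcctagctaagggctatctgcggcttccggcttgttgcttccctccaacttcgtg
Sohlh2, chr3:55181794-55182093, plus strand: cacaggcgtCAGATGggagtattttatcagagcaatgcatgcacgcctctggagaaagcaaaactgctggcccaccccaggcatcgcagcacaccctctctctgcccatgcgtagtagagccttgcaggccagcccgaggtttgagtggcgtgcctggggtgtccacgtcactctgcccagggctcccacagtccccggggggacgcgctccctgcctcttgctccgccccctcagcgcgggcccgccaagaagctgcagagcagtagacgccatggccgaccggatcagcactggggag
Neurog3, chr10:62132840-62133139, plus strand: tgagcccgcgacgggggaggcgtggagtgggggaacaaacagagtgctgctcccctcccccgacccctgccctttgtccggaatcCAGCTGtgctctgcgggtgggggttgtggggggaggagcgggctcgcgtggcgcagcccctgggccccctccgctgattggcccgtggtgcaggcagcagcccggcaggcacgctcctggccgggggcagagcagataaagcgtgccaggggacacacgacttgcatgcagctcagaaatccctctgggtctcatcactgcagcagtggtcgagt
Kit, chr5:75574737-75575036, plus strand: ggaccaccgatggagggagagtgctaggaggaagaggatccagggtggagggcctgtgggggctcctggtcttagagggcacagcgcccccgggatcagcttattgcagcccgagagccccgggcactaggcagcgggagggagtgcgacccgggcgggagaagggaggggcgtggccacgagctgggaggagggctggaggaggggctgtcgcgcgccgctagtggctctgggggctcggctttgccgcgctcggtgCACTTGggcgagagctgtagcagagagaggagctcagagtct
Dmrtb1, chr4:107684181-107684480, minus strand: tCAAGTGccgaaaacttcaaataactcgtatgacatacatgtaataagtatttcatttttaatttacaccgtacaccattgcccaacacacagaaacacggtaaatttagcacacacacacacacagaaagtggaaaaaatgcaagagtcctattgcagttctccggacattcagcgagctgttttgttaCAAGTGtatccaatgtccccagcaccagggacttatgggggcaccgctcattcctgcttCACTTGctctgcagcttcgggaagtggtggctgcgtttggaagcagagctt
Of the 10 genes, 7 had a start region in the RefSeq table, Uchl1 and Upp1 being the others. Where a gene had several starts, the one nearest to its start in the deposited table was used. A CANNTG was present in 6 of the 7 windows, against 72.3% of all 32851 windows of 300 bases. CACGTG, which is one form of CANNTG, was present in the Sohlh1 window alone among the 7, in 3 copies, and in 7.15% of all windows. Of the other motifs searched on both strands, TCCCGC was found in 1 window, that of Kit, and in 20% of all windows. An exact form of a retinoic acid element, a direct repeat of AGGTCA with 5 free bases between, was found in 0 of the 7 and in 0.00913% of all windows. At that rarity its absence from the 7 tells nothing about these genes, and other forms were not searched. The 7 windows held 8 to 20 CG dinucleotides each, with a median of 7 over all windows.

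Levels of all 10 genes were lower in every iNSC library than in any SSC library, as were those of 46.4% of all genes tested. Of the 9 that passed the expression filter, 8 fell and 0 rose, where a fall means an adjusted p under 0.05 and at least a 2-fold difference in edgeR's quasi-likelihood test. Of all 17387 genes tested, 27.6% fell. Members that are near the floor in iNSCs passed the filter through the SSC libraries, so that the count of fallers is a description. Neurog3 did not pass, and Kit passed but missed the size threshold. Among the 9 tested members, the levels left in iNSCs ranged from 0.691% of the SSC mean for Sox3 to 52.0% for Kit, and Neurog3 had 0 counts there.

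**Figure D1:**
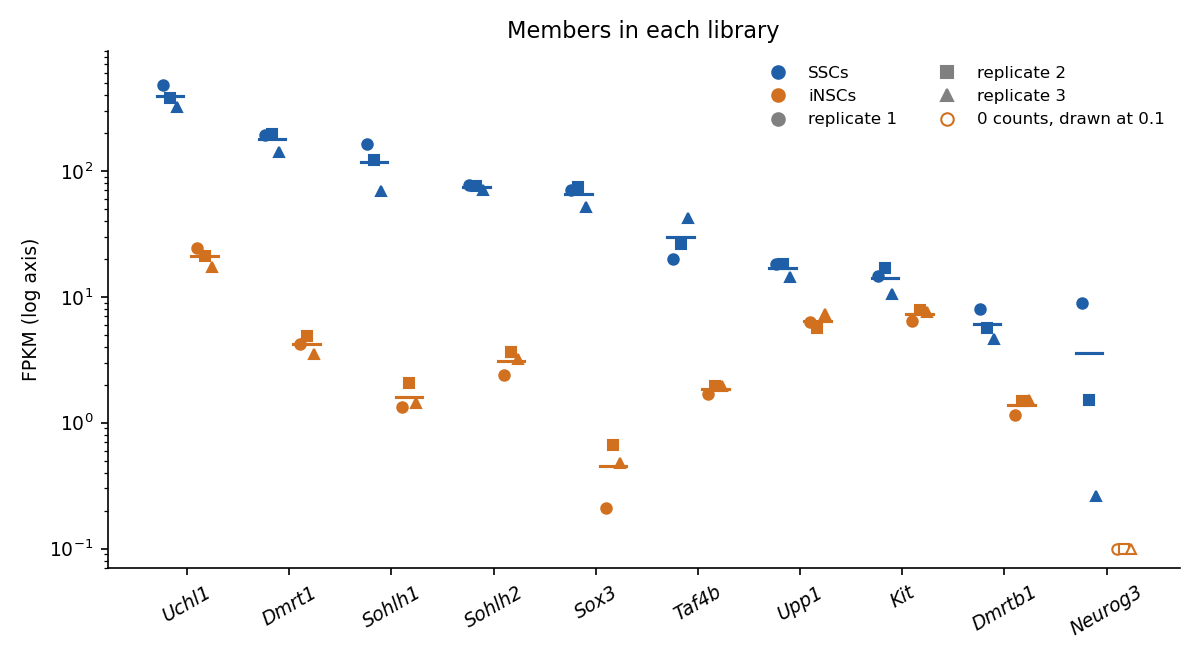
FPKM on a log axis of the 10 genes in each of the 6 libraries, ordered by the SSC mean. Points are libraries, marker shapes are replicate numbers, bars are group means, and open symbols are libraries with 0 counts drawn at 0.1. In each gene the 3 iNSC libraries lie below the 3 SSC libraries, with the narrowest gap for Kit.

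Neurog3 and Sox3 are the transcription factors that mark the progenitor. Neurog3 (ENSMUSG00000044312, chromosome 10, 62133090 to 62134763, plus strand) had 292, 46 and 8 counts in SSCs replicates 1, 2 and 3, which are 9.0, 1.52 and 0.26 FPKM, and 0 counts in each iNSC library. No other member differed so widely among the SSC libraries: the ratio of highest to lowest was 32.4 after scaling, against a median of 1.47 over tested genes. The counting intervals of the 3 SSC libraries do not overlap, at 13.4 to 16.9, 1.86 to 3.40 and 0.185 to 0.842 CPM (exact 95% Clopper-Pearson, for counting error only). Taken over the group, Neurog3 was at least 101-fold lower in iNSCs, computed against 3 counts over the 3 iNSC libraries. SSCs replicate 1 alone held 84.4% of the SSC counts, and without it the bound was at least 24.5-fold lower.

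The 8 counts of SSCs replicate 3 kept Neurog3 out of the test. It was called lower in iNSCs without SSCs replicate 3 (adjusted p = 0.00155, edgeR), where 28% of all tested genes were, and with no expression filter (adjusted p = 0.00113, edgeR), where 18.3% were. With any 1 iNSC library left out the call was weaker, at adjusted p of 0.0331 to 0.0352 (edgeR) and SE of 2.96 to 2.99. Where a filter was used, Neurog3 passed it through the SSC libraries alone, so that these calls are a description. Neurog3 lies inside Fam241b, a gene on the other strand, with 273 bases of exon shared, and the sources used here do not say whether strand was used in counting. Fam241b had 638 to 815 counts in SSCs and 189 to 241 in iNSCs, where Neurog3 had 0. The relatives Neurog1 and Neurog2, factors of neuronal commitment, stayed under the filter, and Neurog1 had 0 counts in all 6 libraries.

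Sox3 (ENSMUSG00000045179, chromosome X, 60891366 to 60893430, minus strand) was at 70.5, 74.98 and 51.3 FPKM in SSCs replicates 1 to 3 and at 0.210, 0.670 and 0.480 FPKM in iNSCs replicates 1 to 3. It had the largest tested difference of the members, with a log2 difference of -6.91 (SE 0.35, adjusted p = 4.93e-06, edgeR). SOX3 belongs with SOX1 and SOX2 to the SOXB1 group, which also acts in neural progenitors of the embryo. Sox2 went from 1282 counts in SSCs to 3 in iNSCs, a ratio of scaled counts of 373 (95% interval 127 to 1810), and leaving out iNSCs replicate 1 took its log2 difference from -8.39 to -9.24. Sox1 was at least 12.5-fold lower, with 43 counts over the SSC libraries against 0. None of the 3 SOXB1 genes was above 0.670 FPKM in any library of the cells labelled neural stem cell-like.

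Sohlh1 and Sohlh2 encode partner factors of differentiating spermatogonia. Sohlh1 (ENSMUSG00000059625, chromosome 2, 25842995 to 25847248, minus strand) was at 165, 121 and 69.7 FPKM in SSCs replicates 1 to 3 and at 1.32, 2.07 and 1.42 FPKM in iNSCs replicates 1 to 3. Sohlh2 (ENSMUSG00000027794, chromosome 3, 55182028 to 55209957, plus strand) was at 76.6, 76.0 and 70.2 FPKM and at 2.39, 3.66 and 3.19 FPKM. Both fell, with log2 differences of -5.93 for Sohlh1 (SE 0.36) and -4.34 for Sohlh2 (SE 0.17), at adjusted p of 1.02e-05 and 2.48e-06 (edgeR). The partners spread differently among SSC libraries: the highest library was 2.17 times the lowest for Sohlh1 and 1.04 times for Sohlh2 after scaling. In SSCs replicate 3 their FPKM were nearly equal, and in SSCs replicates 1 and 2 Sohlh1 was the higher.

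Other basic helix-loop-helix genes of germ cells went the same way. Figla, known as a factor of the oocyte, fell from 15.5 ± 3.12 to 0.497 ± 0.327 FPKM (SD, n = 3 libraries here and below), and Tcfl5, a factor of the testis, from 41.4 ± 4.65 to 1.06 ± 0.137 FPKM. Both were named after their values were seen.

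Dmrt1 and Dmrtb1 encode DM domain factors. Dmrt1 (ENSMUSG00000024837, chromosome 19, 25505618 to 25604329, plus strand) was at 194, 197 and 142 FPKM in SSCs replicates 1 to 3 and at 4.21, 4.92 and 3.48 FPKM in iNSCs replicates 1 to 3, a log2 difference of -5.14 (SE 0.19, adjusted p = 1.94e-06, edgeR). Dmrtb1 (ENSMUSG00000028610, chromosome 4, 107676290 to 107684230, minus strand) was at 8.05, 5.61 and 4.62 FPKM and at 1.15, 1.48 and 1.5 FPKM, a log2 difference of -1.88 (SE 0.25, adjusted p = 3.77e-04, edgeR). The SSCs thus held far more Dmrt1 than Dmrtb1 per length of transcript, and 2.37% of the Dmrt1 level and 22.6% of the Dmrtb1 level were left in iNSCs. Among the family's other genes, Dmrt3 fell by 5.34 on the log2 scale, and Dmrt2 and Dmrtc2, named after their values were seen, had log2 differences of -4.08 and -4.16. Dmrta2 was at 2.99 ± 1.90 and 1.08 ± 0.269 FPKM and was not called (adjusted p = 0.0599, edgeR), and Dmrta1 was too low to be tested.

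Kit, the receptor of stem cell factor and the surface mark of differentiating spermatogonia, was the member with the most left. Kit (ENSMUSG00000005672, chromosome 5, 75574916 to 75656722, plus strand) was at 14.7, 16.9 and 10.6 FPKM in SSCs replicates 1 to 3 and at 6.42, 7.92 and 7.59 FPKM in iNSCs replicates 1 to 3. The groups do not overlap, yet the log2 difference of -0.68 (SE 0.17, adjusted p = 0.00838, edgeR) is under the size threshold, and it was -0.94 with library totals in place of TMM. The germ cell markers Ddx4 and Dazl were left at 0.985% and 3.03% of their SSC means in the same libraries.

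Kit is also known in mast cells, melanocytes and Leydig cells. The mast cell list of 8 genes summed to 2.37 to 6.28 FPKM in SSCs and 5.61 to 5.90 FPKM in iNSCs, with 2 genes at 0 counts in all SSCs, Fcer1a and Ms4a2, and 0 such genes in iNSCs, where each of the pair was at most at 0.120 FPKM. Hdc, the histidine decarboxylase of the mast cell list, rose from 0.463 ± 0.197 to 1.95 ± 0.334 FPKM and was its single called gene. The largest part of the sum was Gata2, not called, at 1.86 to 2.95 FPKM in SSCs and 2.52 to 2.88 FPKM in iNSCs. The 6 mast cell genes with counts in SSCs were all highest in SSCs replicate 3. The melanocyte list of 6 summed to 4.48 to 5.02 and 2.16 to 2.38 FPKM. Of its genes 3, Tyr, Tyrp1 and Dct, had 0 counts in all iNSCs and were at 0.0600 FPKM or less in SSCs. Of its other genes Mitf, a transcription factor, rose from 0.870 ± 0.233 to 1.72 ± 0.0436 FPKM, and Pmel, a melanosome protein, fell from 3.42 ± 0.412 to 0.413 ± 0.145 FPKM. The Leydig list of 8 summed to 13.2 to 43.1 and 48.2 to 54.5 FPKM, with Cyp17a1 and Lhcgr at 0.120 FPKM or less in all 6 libraries. Of the Leydig genes 3 rose, the steroidogenic enzymes Hsd3b1 (log2 3.73) and Cyp11a1 (log2 1.20) and the factor Nr5a1 (log2 1.71), and 0 fell. Over all genes tested, 25.7% rose and 27.6% fell. The Sertoli list of 10, which includes Kitl, summed to 350, 62.5 and 118 FPKM in SSCs replicates 1 to 3 and to 742 to 931 FPKM in iNSCs. It had 8 risers, and Fshr was at or below 0.0400 FPKM in all 6 libraries. Among its 9 genes with values in SSCs, 7 were highest in SSCs replicate 1. Clu made up most of each sum, at 44.2 to 280 FPKM in SSCs and 547 to 750 FPKM in iNSCs. Amh, too low to be tested, went the other way, from 54 counts in SSCs to 12 in iNSCs. The part of such cells in the Kit level was not tested.

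**Figure D2:**
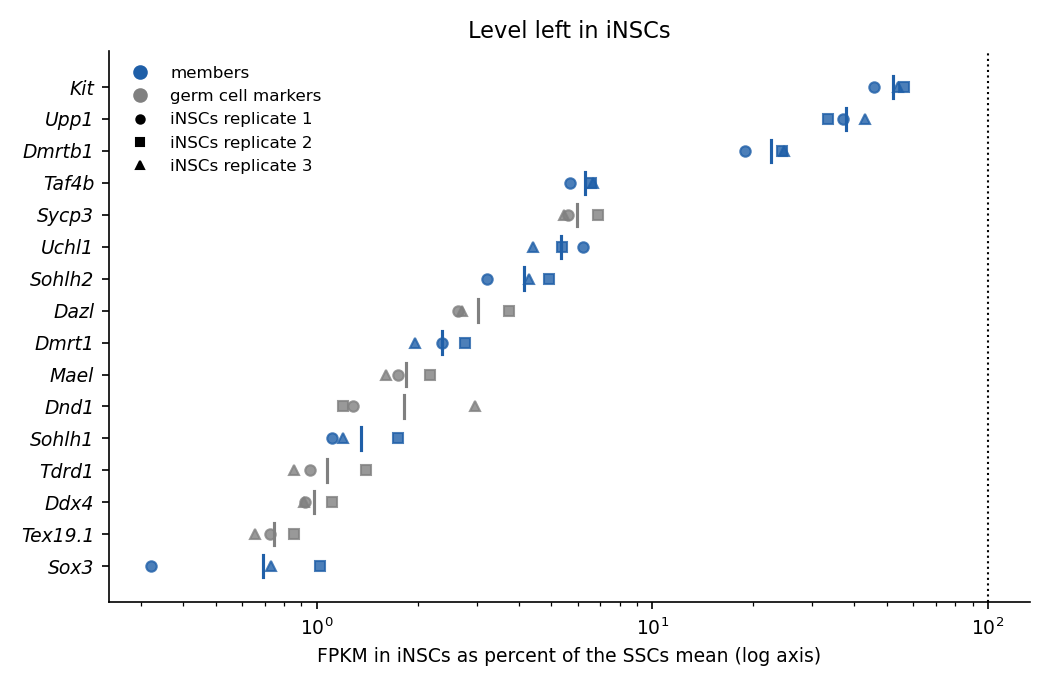
FPKM in each iNSC library as percent of the SSC mean, on a log axis, for 9 members and 7 germ cell markers, with vertical bars for group means. Neurog3 and Nanos2, with 0 counts in iNSCs, are left out. Kit at 52.0%, Upp1 at 37.8% and Dmrtb1 at 22.6% lie to the right of all markers, and the other members lie among or next to them.

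Transcripts of KIT's ligand rose. Kitl, which encodes stem cell factor, was at 3.34, 1.16 and 1.62 FPKM in SSCs replicates 1 to 3 and at 25.8, 23.0 and 18.2 FPKM in iNSCs replicates 1 to 3, a log2 difference of 3.72 (SE 0.37, adjusted p = 8.85e-05, edgeR). Of 22 genes for KIT's ligand and its signalling, all tested, 8 rose and 4 fell. The median log2 difference was 0.60, against -0.05 over all genes tested, of which 25.7% rose and 27.6% fell. The SRC family kinase Lyn rose from 0.573 ± 0.281 to 15.5 ± 1.69 FPKM, and Pik3r1, a regulatory subunit of phosphoinositide 3-kinase, rose by a log2 difference of 1.92. Pik3cd, a catalytic subunit of the same enzyme, fell from 37.4 ± 13.5 to 1.37 ± 0.0950 FPKM, the kinase Fyn fell by 1.92 and the adaptor Sh2b3 by 1.53 on the log2 scale. The fourth faller was Mtor, at a log2 difference of -1.14.

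KIT belongs to the class of receptor kinases that also holds the receptors of PDGF, CSF1 and FLT3 ligand, and these genes went in different directions. Pdgfra rose from 4.87 ± 0.594 to 14.9 ± 1.10 FPKM. Csf1r rose from 0.123 ± 0.111 to 7.56 ± 0.409 FPKM, close to the FPKM of Kit in the same libraries, and its log2 difference of 6.16 became 7.04 when SSCs replicate 1 was left out. Flt3 fell from 214 counts to 1, a ratio of 187 (95% interval 33.1 to 7407), and its log2 difference of -7.15 became -9.10 when iNSCs replicate 3 was left out and -6.37 when SSCs replicate 3 was. Pdgfrb was not called (log2 -0.14, adjusted p = 0.85, edgeR). It was at 6.78, 5.70 and 0.790 FPKM in SSCs replicates 1 to 3 and at 2.82 to 3.85 FPKM in iNSCs.

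**Figure D3:**
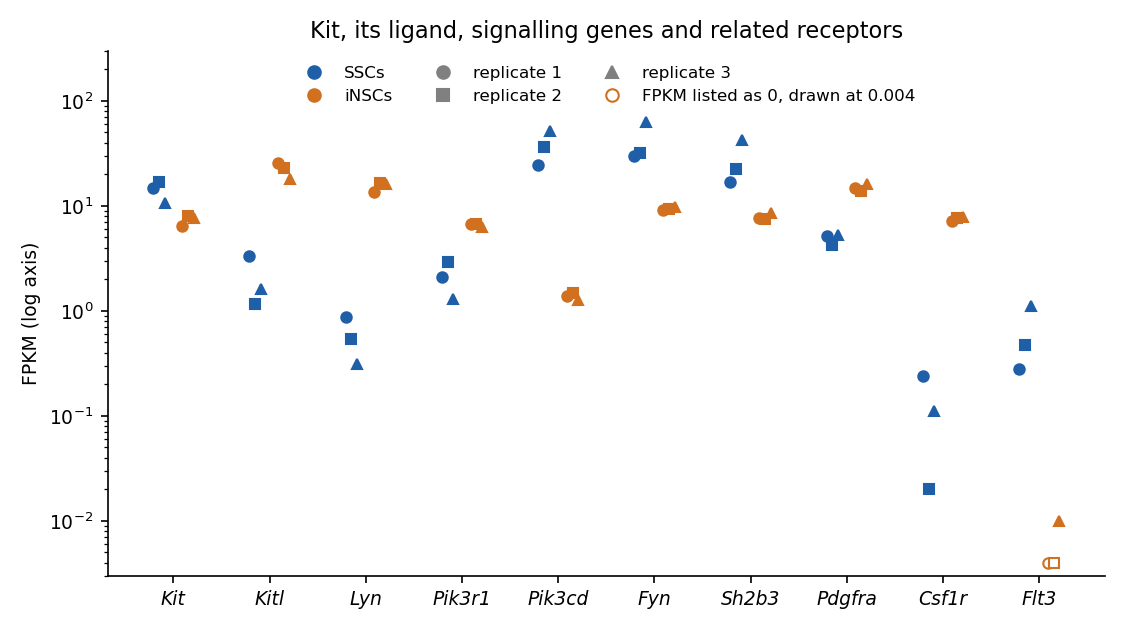
FPKM on a log axis of Kit, its ligand gene Kitl, signalling genes and related receptor genes in the 6 libraries. Points are libraries, shapes are replicate numbers, and open symbols are values listed as 0. Kit lies within a few-fold in both groups, while Kitl, Lyn and Csf1r are higher and Pik3cd and Flt3 lower in all 3 iNSC libraries.

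Uchl1, Upp1 and Taf4b are markers and cofactors rather than DNA-binding regulators. Uchl1, a ubiquitin hydrolase known as PGP9.5 and used to stain spermatogonia and also neurons (ENSMUSG00000029223, chromosome 5, 66676091 to 66687234, plus strand), was at 481, 381 and 319 FPKM in SSCs replicates 1 to 3 and at 24.5, 21.3 and 17.3 FPKM in iNSCs replicates 1 to 3. It had the highest level of the members in both groups and fell by 3.97 on the log2 scale (SE 0.19, adjusted p = 4.21e-06, edgeR). The antisense gene Uchl1os, which overlaps it, had 17, 13 and 4 counts in SSCs and 0 in iNSCs. How reads in the overlap were counted is not known, and their part in the Uchl1 value was not tested. Values of the other ubiquitin hydrolases of the family, named after they were seen, differed among themselves: Uchl3 had a log2 difference of 0.15 (SE 0.15, adjusted p = 0.409, edgeR), Uchl5 was at 9.62 ± 0.656 and 8.07 ± 0.596 FPKM and was not called, and Bap1 fell too, with a log2 difference of -1.32. With library totals in place of TMM, Uchl3 turned to -0.11, with no call, and Bap1 was still called.

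Upp1, a uridine phosphorylase of pyrimidine salvage (ENSMUSG00000020407, chromosome 11, 9118103 to 9136170, plus strand), was at 18.3, 18.2 and 14.4 FPKM in SSCs replicates 1 to 3 and at 6.28, 5.64 and 7.29 FPKM in iNSCs replicates 1 to 3. Its log2 difference of -1.15 (SE 0.16, adjusted p = 4.40e-04, edgeR) is close to the size threshold of 1. Its relative Upp2 was near the floor, at 0.0600 ± 0.0300 and 0.173 ± 0.0473 FPKM, and its rise (log2 1.80, adjusted p = 0.00618, edgeR) was lost under limma on log2(FPKM + 1) and on log2(FPKM + 0.1).

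Taf4b, a germ cell form of a subunit of the general factor TFIID (ENSMUSG00000054321, chromosome 18, 14783245 to 14900359, plus strand), was at 20.0, 26.4 and 42.4 FPKM in SSCs replicates 1 to 3 and at 1.69, 1.94 and 1.97 FPKM in iNSCs replicates 1 to 3. It fell by 3.75 on the log2 scale (SE 0.32, adjusted p = 4.20e-05, edgeR). Taf4, the form found in most cells and named after its values were seen, was at 6.50 ± 0.361 and 5.65 ± 0.483 FPKM, with a log2 difference of 0.05 (SE 0.13, adjusted p = 0.749, edgeR), which turned to -0.20 with library totals, also with no call. The level of Taf4b was above that of Taf4 in every SSC library and below it in every iNSC library. The difference between the changes of the pair was not tested.

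**Figure D4:**
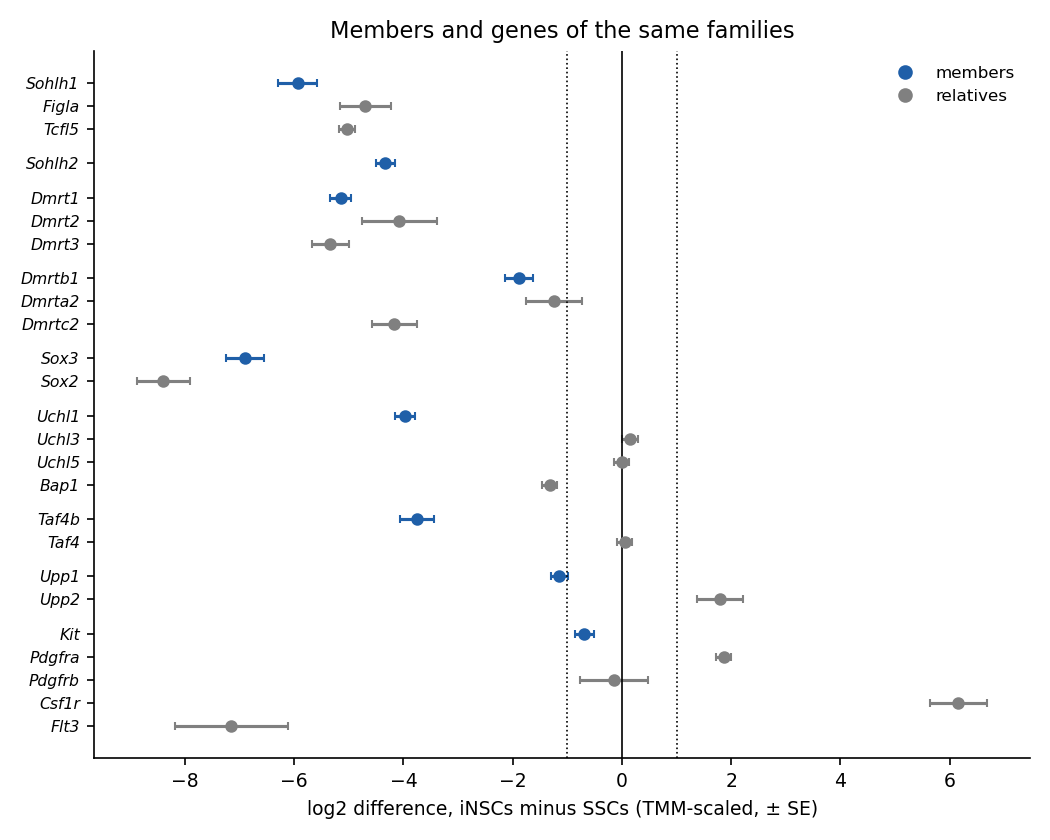
Log2 difference between iNSCs and SSCs (TMM-scaled, error bars are SE) of the 9 tested members and of tested genes of the same families, with dotted lines at the size threshold. The DM domain, SOXB1 and helix-loop-helix relatives lie left of 0 with their members, while Taf4, Uchl3 and Uchl5 lie near 0 (Taf4 and Uchl3 change sign with library totals, with no call).

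The SSC libraries also differed among themselves. On the FPKM scale 9 of the 10 genes were lowest in SSCs replicate 3, as were 44.9% of all tested genes, and Taf4b alone was highest there. After TMM scaling the same numbers were 9 of 10 and 38.7%. Sohlh1 in SSCs replicate 3 was at 58.8% of the SSC mean, Kit at 75.3%, Neurog3 at 7.24% and Taf4b at 143%.

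Of 12 genes of the stem cell state, 11 were highest in SSCs replicate 3, against 29.4% of all tested genes (37.2% after TMM scaling). Of the 10 genes of the progenitor state, 6 were highest and 3 lowest in SSCs replicate 3, against 29.4% and 44.9% of all tested genes. Lhx1, a GDNF-responsive factor named after its values were seen, was at 3.60, 7.47 and 24.0 FPKM in SSCs replicates 1 to 3. Stra8, the gene that retinoic acid induces at the start of differentiation and also named after its values were seen, was at 65.8, 35.3 and 15.9 FPKM. Of the 19 genes of differentiation and retinoic acid entry, 11 were lowest and 6 highest in SSCs replicate 3, against 44.9% and 29.4% of all tested genes. Germ cell markers summed to 934, 933 and 963 FPKM in SSCs replicates 1, 2 and 3 and the fibroblast and feeder markers to 1113, 966 and 165 FPKM. Sertoli markers summed to 350, 62.5 and 118 FPKM in the same libraries. The part of feeder or other cells in these differences was not tested, and 3 libraries allow no test of the order.

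**Figure D5:**
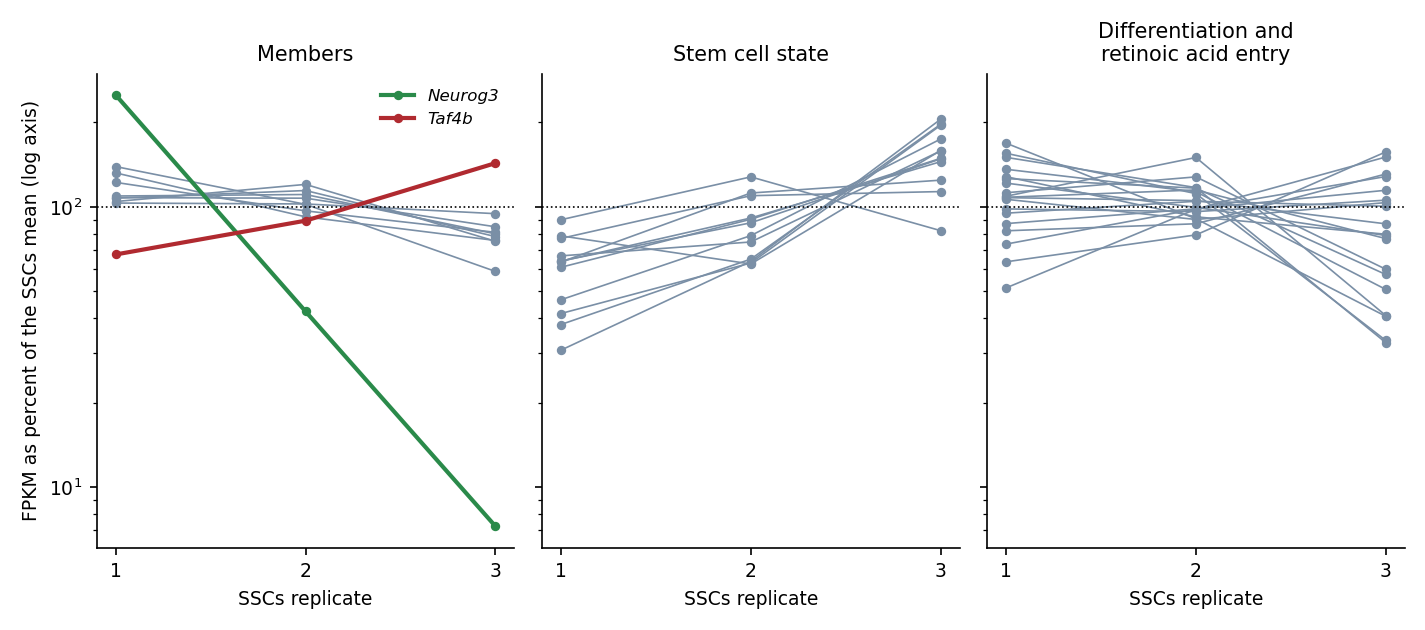
FPKM in each SSC library as percent of the SSC mean, on a log axis, for the members, the stem cell state list and the differentiation list. Each line joins the values of 1 gene, and the replicates have no order. Neurog3 spans 250% to 7.24%, Taf4b is the single member that is highest in replicate 3, and 11 of 12 stem cell genes are highest there.

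The other genes of the path differed between the groups as follows. Of all genes tested, 27.6% fell and 25.7% rose. Genes near the floor in iNSCs passed the filter through the SSC libraries, so that the counts of fallers are a description. Of 12 stem cell state genes, all tested, 12 fell (median log2 difference -6.98, against -0.05 over all genes tested), and the rule for naming took Egr4 (log2 -8.38, SE 0.34), Nanos2 (at least 148-fold lower) and Pax7 (at least 76.5-fold lower). Of 10 genes of the progenitor state, 6 fell and 0 rose (median -1.77): the RNA-binding proteins Lin28a, from 55.3 ± 16.7 to 0.337 ± 0.0929 FPKM, and Nanos3, from 24.5 ± 2.51 to 0.227 ± 0.101 FPKM, and the transcription factor Sall4, from 36.0 ± 2.45 to 0.377 ± 0.0451 FPKM, had the largest falls. The 4 that were not called were Rarg, Ddit4, Foxo3 and Stat3. Rarg, the retinoic acid receptor of progenitors, was at 16.8, 13.2 and 3.90 FPKM in SSCs replicates 1 to 3 and at 6.00, 6.71 and 7.02 FPKM in iNSCs replicates 1 to 3, where the groups overlap.

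Of the 19 genes of differentiation and retinoic acid entry, 13 fell and 1 rose (median -2.65), where 27.6% and 25.7% of all tested genes did. Crabp1, a retinoic acid carrier protein, fell from 163 ± 72.1 to 5.15 ± 0.716 FPKM. Cyp26a1, which degrades retinoic acid, fell too (log2 -5.00, and -5.66 with iNSCs replicate 1 left out). Lhx8, a homeobox factor of germ cells, went from 300 counts to 3, a ratio of 87.2 (95% interval 29.6 to 425), and leaving out iNSCs replicate 3 took its log2 difference from -6.26 to -7.08. The single riser was Rarb, a retinoic acid receptor gene, from 0.0733 ± 0.0404 to 1.28 ± 0.0700 FPKM. Stra8 fell by 1.55 on the log2 scale (SE 0.43, adjusted p = 0.0132, edgeR), with 28.1% of its SSC mean left in iNSCs.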

How the data were processed

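Per the labels' protocols, polyadenylated RNA was made into stranded libraries with a KAPA kit. The authors deposited a table of raw read counts and FPKM values per Ensembl gene. The submitters' processing notes name the mm9 genome, HISAT2 and DESeq2. Neither the counting tool nor its strand setting is given in the sources used here. The deposited FPKM equal the count per exonic length and column total, within 0.0051 FPKM, for 100% of values. Coordinates of all 10 members equal those of GENCODE M21 on GRCm38 and are given on that build. GRCm38 is not mm9, so the mm9 of the notes does not describe these coordinates.

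The deposited counts were tested with edgeR 4.0.16 under R 4.3.3 over all genes that passed its filter (minimum count of 10, total of 15), with TMM scaling, two-sided, and Benjamini-Hochberg adjustment over 17387 genes. A gene rose or fell where the adjusted p was under 0.05 and the log2 difference was 1 or more in size. Differences are iNSCs minus SSCs. Bounds use 3 counts over a group, and intervals are 95% Clopper-Pearson for counting error only. Alternatives were library totals, DESeq2 size factors, DESeq2 1.42.0, no filter, a filter of 1 FPKM in 3 libraries, limma 3.58.1 on log2(FPKM + 1) and log2(FPKM + 0.1), a replicate block, and each library left out. The edgeR script was tested on simulated data. The labels do not say that replicates are separate cultures, so the p-values rest on a spread between samples that may be technical. No library was a copy of another: chi-square divided by its degrees of freedom was 4.85 or more in every pair within a group.

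The members, the 5 lists of related genes and the 8 marker lists were chosen with earlier results of these data known. All members are named, with up to 3 called genes of largest rise and 3 of largest fall in each of the 5 lists. Other genes are cell type markers, spell out a small count, or are marked as named after their values were seen. A planned comparison of protein sequences was not made.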

Additional observations from a re-analysis of the deposited data

How the results depend on the processing

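The 8 members that fell did so in every alternative run, Kit was called in none of them, and 0 members rose in any. Log2 differences stayed within -6.20 to -5.45 for Sohlh1, -4.59 to -4.14 for Sohlh2, -7.25 to -5.51 for Sox3, -3.99 to -3.35 for Taf4b, -1.41 to -1.02 for Upp1 and -0.94 to -0.53 for Kit. Neurog3 made a further call (9 in place of 8) with no filter and without SSCs replicate 3 or any 1 iNSC library, and was under the filter elsewhere. Over all genes, 4470 rose and 4797 fell, and limma on log2(FPKM + 1) gave 2746 risers. The calls of Pax7, Flt3 and Upp2 were lost there, and that of Upp2 also at log2(FPKM + 0.1). Library totals in place of TMM moved log2 differences by a median of -0.25. Replicate numbers are shared by the groups, but the labels do not say that they pair libraries, so they were not taken as pairs. Deviations of same-numbered libraries correlated at 0.12, 0.08 and -0.03, and those of differently numbered libraries at -0.15 to 0.09. With 3 libraries in each group these values cannot decide on pairing. With the replicate block 4510 genes rose and 4661 fell, and 8 members fell.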
